A study of Mus musculus with 71 samples.

Results

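Whole blood of 12 mice labelled HOCL + D06 was compared with whole blood of 12 mice labelled HOCL + D11, 24 of the 71 mice of the series, and the comparison was made over every gene of the table of normalised values. The members were taken by the treatment named in each sample's label, and no measured value was used to place a mouse in a group. The comparison itself was chosen with earlier results of these data known. The labels give HOCL for all 24 mice, so HOCl exposure was shared by both groups and the name of the treatment, D06 or D11, was the only labelled difference. The series also holds 12 mice with HOCl alone, 11 control mice, 12 mice with E07 and 12 with BPR21, and the first 3 of these groups are used below as reference points.

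HOCl stands for hypochlorous acid, an oxidant that in the study was injected into the skin on 5 days a week for 6 weeks, 300 µL each time, to give a mouse model of systemic sclerosis, a disease of skin and organ fibrosis with immune activation. The study's methods describe female Balb/c AnNRj mice that were 6 weeks old at the start, with the groups housed in separate cages. D11 is described there as a human IgG1 antibody against the carbohydrate recognition domain of galectin-3, found by phage display and built with the LALA change in the Fc region, which weakens Fc receptor binding. It was given under the skin at 20 mg/kg, on the day before the first HOCl injection and then every 5 days from day 5. The antigen, format, dose and schedule of D06 are not given in the sources used here, and the labels do not say that it is an antibody. The series is described as a profile of 3 anti-Gal-3 antibodies, while the labels hold 4 treatment names, D06, D11, E07 and BPR21. The study also describes TD139, a galectin-3 inhibitor instilled into the trachea on a different schedule, and no label names it. Dose, schedule and cage therefore cannot be told apart from the treatment itself in any value below. The methods do not say how the labelled D06 group relates to the housing they describe.

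Galectin-3 (gene symbol Lgals3) is a lectin that binds β-galactoside sugars on glycoproteins. It is made in large amounts by macrophages and other myeloid cells, is found in the nucleus, in the cytoplasm and outside the cell, and is known for roles in cell adhesion, chemoattraction and fibrosis. An antibody against it acts on the protein outside the cell, so the transcripts of blood cells report on which cells circulate and on what those cells express, and not on the binding of the antibody. Whole blood RNA of a mouse comes from leukocytes, platelets and reticulocytes, the young red cells that still hold RNA.

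The depth was close to even. Total counts ran from 12427021 to 15948972 reads per mouse in D06 (median 13622721) and from 12295725 to 14929266 in D11 (median 13558719). The size factor, which measures how many reads the typical gene received, varied more widely. It ran from 0.413 to 1.295 in D06 mice (median 0.861) and from 0.593 to 1.29 in D11 mice (median 0.995). Reads over the 4 defining skin and lung transcripts Krt14, Krt5, Sftpc and Scgb1a1 were few, with at most 1 count of Sftpc and at most 2 of Scgb1a1 in any of the 24 mice and 214 of Krt5 in a single D11 mouse. The liver transcript Alb, the gene of serum albumin, exceeded 100 counts in 4 mice, namely D06 mice 3 and 10 and D11 mice 4 and 10, with 847, 3503, 1611 and 1774 counts. In the other 20 mice it had at most 35 counts. D06 mouse 5 had the highest share of erythroid reads and D11 mouse 10 the highest share of globin reads, and both lay far from the other mice of their group over all genes. Some of the values below are also given without 1 or both of them, and most values of single genes are given with all mice only.

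No gene separated D06 from D11 mice at the thresholds the study used, namely an FDR (false discovery rate) no higher than 0.05 together with a 1.3-fold change or more. In limma on the deposited normalised values, 0 of 10508 genes passed (0%), and the smallest FDR was 0.258, for Pus7. In edgeR's quasi-likelihood test on the raw counts, 0 of 10503 genes passed (0%), with a smallest FDR of 0.614, and DESeq2 on the same counts also called 0 genes, with a smallest adjusted p of 0.102. At an unadjusted p under 0.05 there were 655 genes in limma, 6.23% of those tested, 597 in edgeR (5.68%) and 631 in DESeq2. Of the 655, 296 were higher and 359 lower in D06 mice. For no gene were the 12 values of the D06 mice all above or all below the 12 values of the D11 mice.

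The precision of this comparison sets what the absence of calls can and cannot show. On the deposited log2 scale the 95% interval of the difference had a median half-width of 0.229 per gene. For 10411 genes (99.1%) the whole interval lay within 2-fold in either direction, and for 9898 (94.2%) it lay within 1.5-fold. For 7433 genes (70.7%) it lay within 1.3-fold, which leaves a difference of 1.3-fold or more inside the interval for the other genes. This scale compresses the changes of genes with few reads, so these bounds hold for the normalised values and are wider in terms of transcripts for such genes.

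Differences of 1.3-fold or more were seen for 237 genes, 2.26% of the table, none of them past the FDR threshold. Of these, 197 were higher in D06 mice and 40 were lower. With an unadjusted p under 0.05 required as well, 80 remained on the higher side and 35 on the lower side. Over all genes 5038 were higher and 5470 lower in D06 mice, and the median difference was -0.01 log2. The larger differences thus lay mostly on the D06 side although the typical gene did not.

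The 5 genes with the smallest p that were lower in D06 mice were Pus7, Rnf2, Gm1673, Wdr5b and Glmn, and none passed the threshold. Pus7 encodes a pseudouridine synthase that modifies tRNA and mRNA, and it lies on chromosome 5 at chr5:23945150-23993255 (GRCm39). Its normalised value ran from 6.57 to 7.46 (median 7.23) in D06 mice and from 7.44 to 7.93 (median 7.59) in D11 mice. The groups overlapped by a single pair of mice, D06 mouse 12 and D11 mouse 12. The difference was -0.45 log2 (SE 0.09, 95% interval -0.63 to -0.27, limma FDR 0.258), with raw counts between 7 and 65 in D06 mice and between 43 and 153 in D11 mice. The mean in mice with HOCl alone was 7.61 and in control mice 7.56, against 7.17 ± 0.24 (SD, n = 12) in D06 and 7.61 ± 0.15 (SD, n = 12) in D11 mice, so D11 mice sat at the level of both reference groups. Against control mice the D06 difference was -0.39 log2 (limma FDR 0.00817), and against HOCl alone it was -0.45 log2 (limma FDR 0.0955).

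Gm1673, a protein-coding gene at chr5:34140435-34142357 (GRCm39), had few reads. In D06 mice it had 0 counts in 9 of 12 libraries and 11, 1 and 2 in mice 3, 6 and 8, and in D11 mice it had at least 1 count in 11 of 12, with a median of 8 and a highest of 25. Most D06 mice were therefore at the lowest value of the table, which stands for 0 counts. The difference was -0.39 log2 (SE 0.09, limma FDR 0.687). It was the gene called when the 4 mice with over 100 Alb counts were left out, with 10 mice in each group, a difference of -0.51 log2 and a limma FDR of 0.00711, and edgeR called it there too at FDR 0.0391. Those 4 mice, chosen after the data were seen, included the D06 mouse with 11 counts and the D11 mice with 0 and 1 count. HOCl-alone and control mice had 5 of 12 and 5 of 11 libraries at 0 counts.

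Rnf2, the catalytic subunit of Polycomb repressive complex 1, differed by -0.36 log2 (SE 0.08), Wdr5b, a WD-repeat protein, by -0.40 (SE 0.10) and Glmn, an inhibitor of cullin-RING ubiquitin ligases, by -0.41 (SE 0.10). In each of the 3 genes 1 of the 12 D06 mice was above the D11 median. Their FDRs lay between 0.687 and 0.719 in limma.

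The 5 genes with the smallest p on the D06 side were Lyrm9, Tmem33, Vim, Cdca3 and Ypel4, also short of the threshold with a limma FDR of 0.719 each. Vim, the intermediate filament protein vimentin of leukocytes, had normalised values from 11.90 to 12.47 (median 12.28) in D06 mice and from 11.72 to 12.12 (median 11.98) in D11 mice, a difference of 0.28 log2 (SE 0.08). The groups overlapped, with 11 of 12 D06 mice above the D11 median. The mean in HOCl-alone mice was 12.24, level with D06 mice.

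Lyrm9, a LYR-motif protein, differed by 0.49 log2 (SE 0.13), Tmem33, a membrane protein of the endoplasmic reticulum, by 0.31 (SE 0.08) and Cdca3, a cell cycle protein that helps to start mitosis, by 0.36 (SE 0.10). Ypel4, of the yippee-like family, differed by 0.62 (SE 0.17) and had a mean of 7.63 in HOCl-alone and 6.78 in control mice, beside 7.64 ± 0.56 in D06 and 7.02 ± 0.34 in D11 mice (SD, n = 12). For Lyrm9, Tmem33 and Ypel4 11 of 12 D06 mice were above the D11 median, and for Cdca3 10 of 12.

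**Figure D1:**
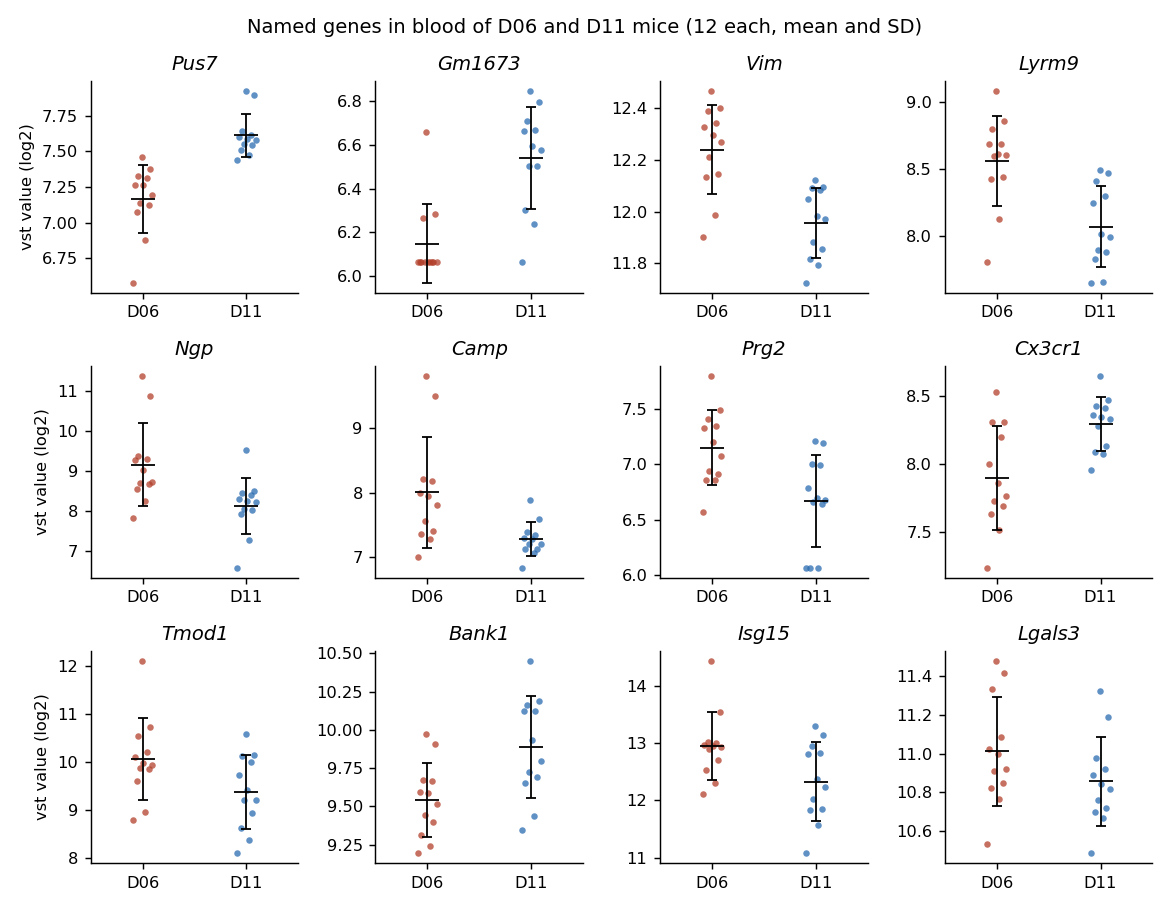
Normalised values (vst, log2 scale, vertical axis) of 12 named genes in each D06 mouse (red points) and each D11 mouse (blue points), with the group mean and SD in black. Pus7 and Gm1673 sat lower in most D06 mice, Ngp and Camp were spread upwards in D06 by mice 1 and 6, and the groups overlapped in every panel.

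The red cell lists had the largest positive medians of the 40 gene lists examined. Reticulocytes keep RNA for membrane skeleton proteins, heme synthesis and the clearance of organelles after the nucleus is lost, and these transcripts mark young red cells in blood. All 20 measured genes of the red cell membrane skeleton list were higher in D06 mice, with a median difference of 0.52 log2, as were all 20 measured erythroid markers (median 0.47) and all 12 heme synthesis genes (median 0.30), while 47.9% of all genes were higher with a median of -0.01. Of the 16 reticulocyte maturation genes 15 were higher (median 0.41). Without D06 mouse 5 these medians were 0.33 for the membrane skeleton (20 of 20 higher), 0.28 for the erythroid markers (18 of 20), 0.22 for heme synthesis (11 of 12) and 0.26 for reticulocyte maturation (15 of 16). None of these genes passed the test (background 0%), and genes of 1 list move together in blood, so the counts describe the lists and are no test of them.

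Tmod1, tropomodulin 1, which caps actin filaments of the membrane skeleton, had normalised values from 8.78 to 12.10 (median 9.96) in D06 mice and from 8.09 to 10.58 (median 9.31) in D11 mice. The ranges overlapped over most of their length, and 10 of 12 D06 mice were above the D11 median. D06 mouse 5 held the highest value, and the next D06 mouse lay at 10.72. The difference was 0.69 log2 (SE 0.29, 95% interval 0.09 to 1.29, limma FDR 0.779).

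Add2, the β-adducin that joins spectrin to actin, differed by 0.65 log2 (SE 0.29) and Kel, the Kell blood group endopeptidase, by 0.64 (SE 0.28). In heme synthesis Fam210b, a mitochondrial membrane protein of erythroid cells, differed by 0.66 (SE 0.25), Urod, uroporphyrinogen decarboxylase, by 0.65 (SE 0.29) and Uros, uroporphyrinogen III synthase, by 0.29 (SE 0.13). The nuclear export factor Xpo7 differed by 0.61 (SE 0.31), and the ubiquitin ligases Trim58 and Trim10 by 0.44 (SE 0.22) and 0.65 (SE 0.35). Without D06 mouse 5 the difference of Trim58 was 0.28. The FDR of these genes lay between 0.779 and 0.793 in limma.

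The erythroid transcription factors were less one-sided, with 10 of 13 higher and a median of 0.09 log2. E2f2, which limits division in late erythroid cells, differed by 0.61 log2 (SE 0.28) and Klf1, the master activator of erythroid genes, by 0.23 (SE 0.13). Of 13 iron handling genes 8 were higher (median 0.08, and 0.03 without D06 mouse 5), led by Slc25a37, the mitochondrial iron importer mitoferrin 1, at 0.58 (SE 0.27).

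Mouse by mouse, the mean normalised value over the 20 erythroid markers was 11.73 ± 0.633 in D06 and 11.29 ± 0.656 in D11 mice (SD, n = 12 each), a difference smaller than the SD within either group. D06 mice ran from 10.73 to 13.30 (median 11.68) and D11 mice from 10.37 to 12.48 (median 11.27). The highest value was that of D06 mouse 5, and it was the only D06 mouse above all D11 mice, while 3 D11 mice lay below all D06 mice. Without it the difference in level was 0.297 instead of 0.439, and without both D06 mouse 5 and D11 mouse 10 it was 0.352. The erythroid markers held 6.99% to 17.1% of all reads in D06 mice and 4.75% to 11.6% in D11 mice. HOCl-alone mice had a mean level of 11.86 (n = 11 in the normalised table), control mice 10.62 and E07 mice 10.57, so D06 mice lay close to HOCl alone and D11 mice between that group and the controls.

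In bulk blood, more reticulocytes and more RNA per reticulocyte cannot be told apart. Globin transcripts were depleted before sequencing and the remainder varied from 0.0339% to 1.63% of reads in D06 mice and from 0.0804% to 3.44% in D11 mice, the highest in D11 mouse 10. The part of globin depletion in the erythroid values was not tested.

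**Figure D2:**
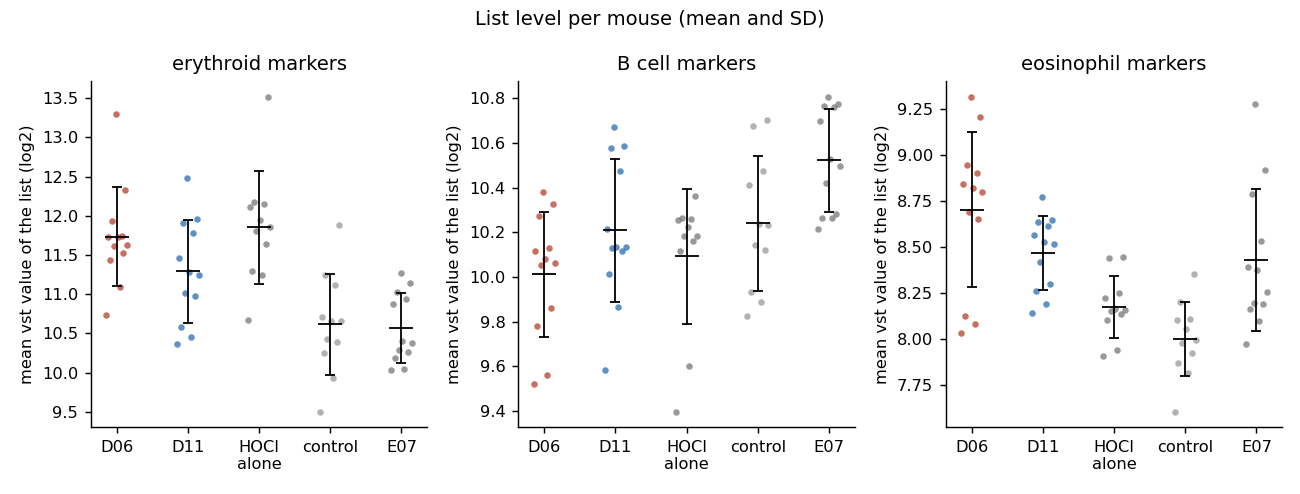
Mean normalised value (vst, log2 scale, vertical axis) over the erythroid, B cell and eosinophil marker lists in every mouse of 5 groups, with the group mean and SD in black. D06 mice had a mean erythroid level of 11.73 against 11.29 in D11 mice, with overlapping points in all 3 panels and 3 D06 mice set below the other 9 in eosinophil markers.

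Among granulocyte genes the largest differences were those of Ngp and Camp, and they came with 2 D06 mice that stood high for both. Ngp and Camp encode neutrophilic granule protein and the antimicrobial peptide cathelicidin, which are made in the bone marrow during granule formation. Ngp ran from 7.82 to 11.37 (median 8.87) in D06 mice and from 6.56 to 9.51 (median 8.24) in D11 mice, a difference of 1.03 log2 (SE 0.32, limma FDR 0.719). Camp ran from 7.01 to 9.81 (median 7.88) in D06 and from 6.83 to 7.88 (median 7.25) in D11 mice, a difference of 0.72 log2 (SE 0.23, limma FDR 0.779). D06 mice 1 and 6 were the highest for both genes, with 1623 and 1912 counts of Ngp and 550 and 582 of Camp, against at most 651 of Ngp and 181 of Camp in the other D06 mice. D11 mouse 10 was the lowest of the 24, with 5 counts of Ngp. Without D06 mouse 6 the difference of Ngp was 0.83 log2 and that of Camp 0.56.

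Ly6g, a surface antigen of mature neutrophils, differed by 0.52 log2 (SE 0.20). D06 mice 1 and 6 were the highest for it too, at 9.44 and 8.98, while the other D06 mice lay at 8.11 or below. Over the 17 neutrophil markers 10 were higher with a median of 0.06, or 0.02 without D06 mouse 5. Of 7 immature granule genes 6 were higher (median 0.12), Ngp and Camp included. The mean level of these genes was 8.32 ± 0.533 in D06 and 8.01 ± 0.124 in D11 mice (SD, n = 12). In that level 8 of 12 D06 mice lay above all D11 mice, with ranges of 7.49 to 9.43 in D06 and 7.79 to 8.18 in D11 mice. The mean level of the neutrophil markers was 10.00 ± 0.453 in D06 and 9.85 ± 0.156 in D11 mice (SD, n = 12), so the spread between D06 mice was the wider.

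Eosinophil markers were higher in D06 mice for 9 of 10 measured genes, with a median of 0.28 log2. Prg2, the major basic protein of eosinophil granules, ran from 6.57 to 7.80 (median 7.14) in D06 and up to 7.21 (median 6.69) in D11 mice, where 3 mice had 0 counts and stood at the floor of the table. Its difference was 0.48 log2 (SE 0.14, limma FDR 0.719), on 7 to 101 raw counts in D06 mice. Siglecf, the inhibitory lectin that defines mouse eosinophils, differed by 0.32 (SE 0.14), and Adgre1, the F4/80 antigen shared with monocytes, by 0.32 (SE 0.16).

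The eosinophil level was not uniform among D06 mice. It had a mean of 8.70 ± 0.420 in D06 and 8.46 ± 0.202 in D11 mice (SD, n = 12), and 7 D06 mice were above all D11 mice while D06 mice 4, 11 and 12 lay at 8.13, 8.03 and 8.08, below the lowest D11 mouse at 8.14. Ccr3, the eotaxin receptor of eosinophils, passed the limma test against HOCl alone in both the D06 and the D11 group, by 1.17 log2 in D06 and 0.90 in D11 mice. Those comparisons share the HOCl-alone mice, and the direct difference between D06 and D11 was 0.27 log2. Basophil and mast cell markers were higher for 7 of 9 genes (median 0.06, and 0.03 without D06 mouse 5), led by Mcpt8, a basophil protease, at 0.34 (SE 0.15), and Ms4a2, the β chain of the IgE receptor, at 0.39 (SE 0.20).

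Monocyte markers showed no common direction, with 11 of 20 higher and a median of 0.03. Cx3cr1, the fractalkine receptor that marks patrolling monocytes and some T and NK cells, was the exception in size. It ran from 7.24 to 8.54 (median 7.81) in D06 and from 7.96 to 8.65 (median 8.34) in D11 mice, with 1 of 12 D06 mice above the D11 median. The difference was -0.40 log2 (SE 0.12, limma FDR 0.719). Both groups lay below the mean of 8.73 in HOCl-alone mice, by 0.83 log2 in D06 (limma FDR 0.0215, called) and by 0.43 in D11 (limma FDR 0.103, not called), and the direct test between them did not pass. Over the 18 chemokine receptors 9 were higher with a median of -0.01.

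Lymphoid transcripts leaned the other way for B cells. All 16 B cell markers were lower in D06 mice, with a median of -0.19 log2. Without D06 mouse 5 the median was -0.17 and 1 of 16 was higher. Bank1, a scaffold of B cell receptor signalling, ran from 9.19 to 9.97 (median 9.55) in D06 and from 9.35 to 10.45 (median 9.87) in D11 mice, a difference of -0.34 log2 (SE 0.12, limma FDR 0.779). Blk, a Src family kinase of B cells, differed by -0.28 (SE 0.12) and Cd22, an inhibitory B cell lectin, by -0.25 (SE 0.12). The mean level of the list was 10.01 ± 0.279 in D06 and 10.21 ± 0.321 in D11 mice (SD, n = 12), with overlapping ranges and 3 of 12 D06 mice above the D11 median. Without D06 mouse 5, the lowest of the group, the difference in level was -0.152 instead of -0.197. HOCl-alone mice had a mean of 10.09 and control mice 10.24.

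Plasma cell and immunoglobulin genes were lower for 13 of 17 (median -0.14), with Sdc1, the plasma cell surface proteoglycan syndecan-1, at -0.28 (SE 0.13). All 12 genes of MHC class II presentation were lower (median -0.14, and -0.08 with 11 lower without D06 mouse 5 and D11 mouse 10), among them Ciita, the master activator of class II genes, at -0.28 (SE 0.13), and H2-Aa, a class II α chain, at -0.30 (SE 0.19). The difference of Ciita was -0.16 without the 4 mice with over 100 Alb counts, and that of H2-Aa -0.17 without D06 mouse 8. The 14 MHC class I genes had a median of -0.03 and the 13 Fc receptor genes one of -0.01. Apart from Ciita, no gene of the class I, class II or Fc receptor lists had an unadjusted p under 0.05.

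T cell markers were mostly lower in D06 mice by small amounts, with 4 of 21 higher and a median of -0.04. Without D06 mouse 5 the list had 9 of 21 higher and a median of -0.01. Cd5, a T cell surface receptor that damps antigen receptor signalling, was set apart within the list at -0.30 log2 (SE 0.11), with no D06 mouse above the D11 median. Il7r, the survival receptor of naive and memory T cells, differed by -0.21 (SE 0.11). NK and cytotoxic genes lay on the D06 side, 14 of 14 with a median of 0.16, and 12 of 14 with 0.12 without D06 mouse 5 and D11 mouse 10. Nkg7, a cytotoxic granule membrane protein, differed by 0.38 (SE 0.15), and 0.24 without D11 mouse 10, which had a value of 7.68 while the other D11 mice lay at 9.02 or above. The chemokine Ccl5 differed by 0.27 (SE 0.11) and the granule protease Gzma by 0.32 (SE 0.17). The 8 dendritic cell markers had a median of 0.00.

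Platelet markers were higher in D06 mice for 13 of 15 genes (median 0.12), led by Gp9, a subunit of the platelet receptor for von Willebrand factor, at 0.36 log2 (SE 0.17). The progenitor list and the tissue list had 2 measured genes each and are given no count.

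**Figure D3:**
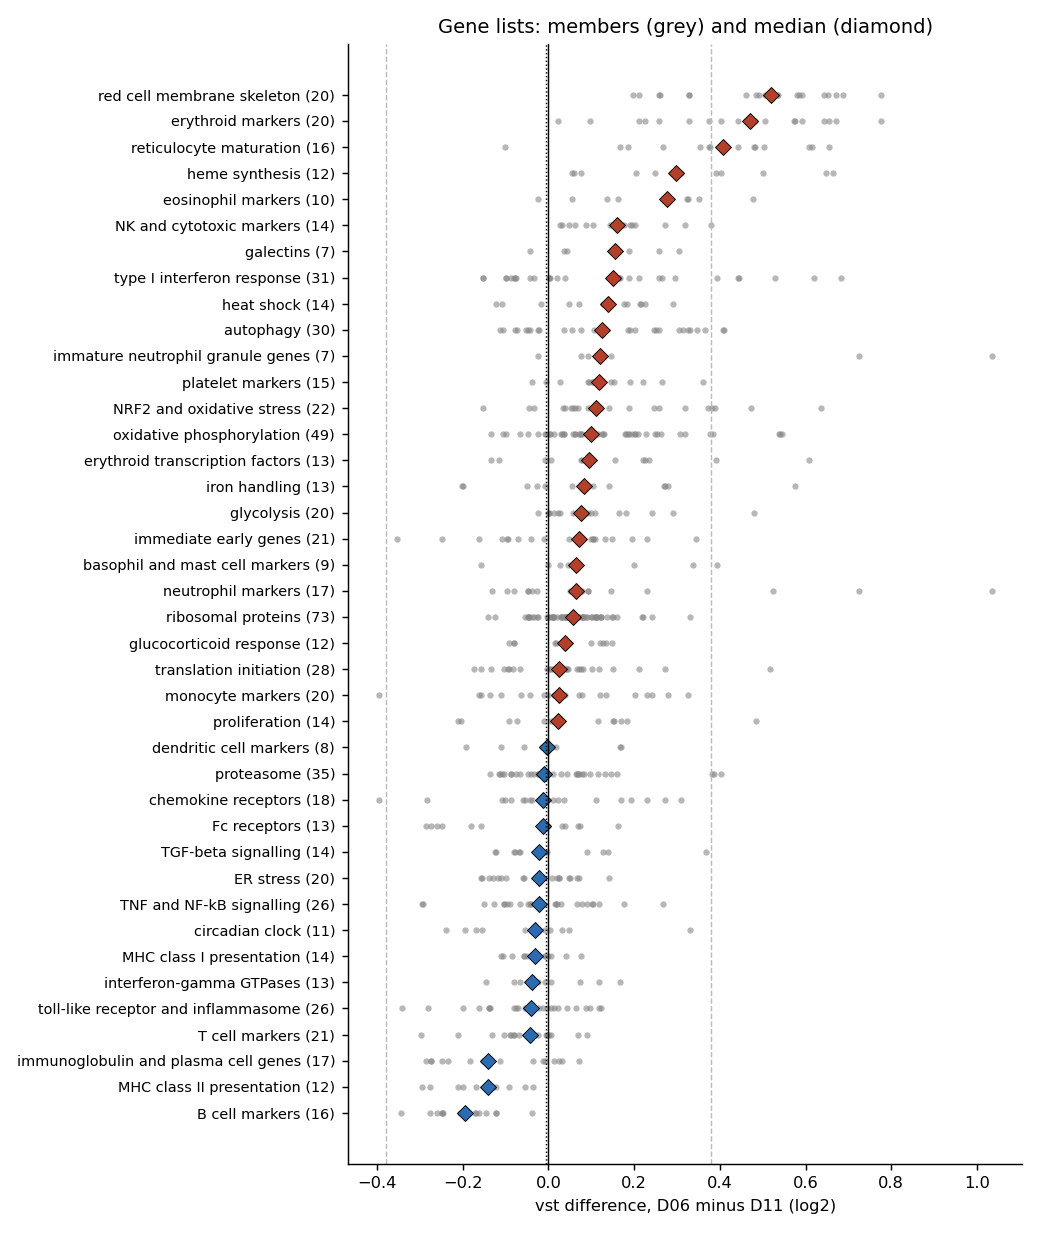
Difference between D06 and D11 mice (vst, log2 scale, horizontal axis) for every measured gene of 40 lists (grey points, number of genes in parentheses) and the median of each list (diamonds), with the all-gene median dotted and 1.3-fold dashed. The red cell lists had medians of 0.30 to 0.52, the B cell and MHC class II lists had all members below 0, and most other medians lay within 0.15 of 0.

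Interferon-stimulated genes gave a mixed picture. Of 31 type I interferon response genes 21 were higher in D06 mice, with a median of 0.15 log2. Isg15, a ubiquitin-like modifier, ran from 12.11 to 14.44 (median 12.94) in D06 and from 11.08 to 13.30 (median 12.30) in D11 mice. Its difference was 0.62 log2 (SE 0.24, limma FDR 0.779), and 10 of 12 D06 mice were above the D11 median. Rsad2, the antiviral enzyme viperin, differed by 0.68 (SE 0.31), and Usp18, which removes Isg15 from proteins, by 0.39 (SE 0.17). D06 mouse 5 was the highest for Isg15 and Rsad2, at 14.44 and 17.67, and the next D06 mouse lay at 13.55 and 16.15.

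The other 10 members were on the D11 side, and the interferon-gamma GTPases had 4 of 13 higher and a median of -0.04. Without D06 mouse 5 and D11 mouse 10 the type I list had 17 of 31 higher and a median of 0.09. Its mean level moved with the erythroid level in D06 mice, while in D11 mice the relation was positive and did not pass after adjustment. Within D06 mice Pearson's r was 0.868 (permutation p = 0.00057, adjusted over 8 relations 0.00152) and Spearman's rho 0.692 (permutation p = 0.0159, adjusted 0.0425), with r = 0.773 in the 10 mice left after the 2 farthest from the erythroid median were omitted. Within D11 mice r was 0.625 (permutation p = 0.0309, adjusted 0.0618) and rho 0.483 (permutation p = 0.115, adjusted 0.230), with r = 0.591 in the 10 remaining mice. The values of a mouse share its library and size factor, and the part of the red cell transcripts in the interferon difference was not tested.

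HOCl is an oxidant, and the transcription factor NRF2 induces genes that neutralise such compounds. Of 22 genes on the NRF2 and oxidative stress list 19 were higher in D06 mice, with a median of 0.11 log2. Gpx1, a glutathione peroxidase that reticulocytes also hold in large amounts, ran from 16.23 to 18.99 (median 17.51) in D06 and from 15.87 to 17.97 (median 17.07) in D11 mice, a difference of 0.63 (SE 0.25). Its highest value was in D06 mouse 5, and the next D06 mouse lay at 17.90. Gpx4, which reduces lipid peroxides, differed by 0.32 (SE 0.13) and the mitochondrial superoxide dismutase Sod2 by 0.38 (SE 0.19).

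The mean level of this list, taken over its genes that are not on the erythroid marker list, moved with the erythroid level in each group. Those genes include Gpx1, which reticulocytes also hold, so the 2 levels can share reticulocyte transcripts. The part of such transcripts in the relation was not tested. Pearson's r was 0.917 in D06 mice (permutation p = 8e-05, adjusted over the 8 relations 0.00032) and rho 0.783 (permutation p = 0.00395, adjusted 0.0158), and r was 0.762 in the 10 mice left without the 2 farthest. In D11 mice r was 0.933 (permutation p = 2e-05, adjusted 0.00016) and rho 0.923 (permutation p = 5e-05, adjusted 0.0004), and r was 0.928 in the 10 remaining. For the B cell and eosinophil lists, the remaining relations to the erythroid level, r lay between -0.476 and -0.121 in the 2 groups and no adjusted permutation p of r was below 0.188. In the 10 mice left without the 2 farthest, r for the B cell list was -0.116 in D06 and -0.665 in D11 mice, and for the eosinophil list it was 0.255 in D06 and -0.126 in D11 mice.

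The galectins, the family to which the target of D11 belongs, were listed together with Lgals3bp, which binds galectin-3. Of the 7 measured genes of this list 6 were on the D06 side, all but Lgals3bp, and the median was 0.15 log2. Lgals3 itself lies on chromosome 14 at chr14:47605208-47623624 (GRCm39). It ran from 10.53 to 11.48 (median 10.96) in D06 and from 10.49 to 11.32 (median 10.83) in D11 mice, and the ranges overlapped almost fully. The difference was 0.15 log2 (SE 0.11, 95% interval -0.06 to 0.37, limma FDR 0.838), an interval that lies within 1.3-fold in either direction. Under scaling by total counts it was -0.03 instead, where the median of all genes was -0.19, so its sign depends on the scaling, as does that of the galectin median, which was -0.03 there. The mean was 11.07 in HOCl-alone and 10.95 in control mice.

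Lgals1, a lectin of activated T cells and stromal cells, differed by 0.30 log2 (SE 0.12, limma FDR 0.779), Lgals9, a ligand of the T cell receptor TIM-3, by 0.19 (SE 0.11) and Lgalsl, a galectin-like protein, by 0.26 (SE 0.14). Each had 10 of 12 D06 mice above the D11 median. Lgals4, Lgals8 and Lgals3bp, the last a secreted glycoprotein that binds galectin-3, lay within 0.1 log2 of equality at 0.04, 0.04 and -0.04.

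Energy metabolism genes were mostly on the D06 side by small amounts. Of 49 measured oxidative phosphorylation genes 41 were higher (median 0.10 log2), with Cox7b and Cox6b1, subunits of cytochrome c oxidase, at 0.38 (SE 0.17) and 0.21 (SE 0.10). Glycolysis had 18 of 20 higher (median 0.08), with Hk2, a hexokinase, at 0.29 (SE 0.10) and Tpi1, triosephosphate isomerase, at 0.24 (SE 0.11). Ribosomal protein genes had 60 of 73 higher with a median of 0.06, translation initiation 19 of 28 (median 0.03) and autophagy 21 of 30 (median 0.12), where Bnip3l, the mitophagy receptor of maturing reticulocytes, was at 0.41 (SE 0.23) and Atg12 at 0.33 (SE 0.14).

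Heat shock genes had 11 of 14 higher (median 0.14), with the chaperone Hspa4l at 0.29 (SE 0.12). The proteasome had 17 of 35 higher (median -0.01, and 22 of 35 with 0.03 without D06 mouse 5) and the ER stress list 9 of 20 (median -0.02). Of 21 immediate early genes 12 were higher (median 0.07, and 0.04 without D06 mouse 5). Within that list Atf3, a stress-induced transcription factor, was higher in D06 mice by 0.35 log2 (SE 0.11), while Ier5 was lower by a difference of -0.25 (SE 0.08) and Klf4, a factor of monocyte differentiation, by a difference of -0.35 (SE 0.16), which was -0.23 without D06 mouse 9. Proliferation genes had 9 of 14 higher (median 0.02, and 7 of 14 with -0.01 without D06 mouse 5), glucocorticoid response genes 9 of 12 (median 0.04) and circadian clock genes 4 of 11 (median -0.03), the clock repressor Nfil3 being at 0.33 (SE 0.13).

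Inflammatory lists had medians close to that of all genes. Toll-like receptor and inflammasome genes had 9 of 26 higher in D06 mice (median -0.04), and 13 of 26 (median 0.00) without D06 mouse 5 and D11 mouse 10, with Tlr6, which senses lipopeptides, at -0.28 log2 (SE 0.11) and the cytokine Il1a at -0.34 (SE 0.16). TNF and NF-kB signalling had 12 of 26 higher (median -0.02) on the normalised values and 14 of 26 (median 0.02) in edgeR, with Tnf at -0.29 (SE 0.12) and Cd40, the costimulatory receptor of B and myeloid cells, at -0.29 (SE 0.12). TGF-beta signalling, the pathway best known for driving fibrosis, had 4 of 14 higher and a median of -0.02, with Thbs1, thrombospondin 1, which platelets store and which activates latent TGF-beta, on the other side at 0.37 (SE 0.14).

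Scaling by total counts placed the median of all genes at -0.19 log2, and differences are given relative to it. Relative to it, every one of the 20 membrane skeleton, 20 erythroid, 12 heme synthesis and 14 NK genes was higher in D06 mice, and all 16 B cell and 12 MHC class II genes were lower. Subtracting this median takes out what the scaling changed for all genes alike, so these counts could move little and are no check of it. Without the subtraction 20 of 20 membrane skeleton, 18 of 20 erythroid and 9 of 12 heme synthesis genes were higher, beside 1715 of all 10508 genes. The median of the NK list was then 0.01 with 7 of 14 genes higher and that of the type I interferon list 0.00 with 16 of 31 higher. Those of the iron handling, erythroid transcription factor, platelet, neutrophil, monocyte, proliferation, galectin, NRF2, heat shock, immediate early, glucocorticoid, translation initiation, autophagy, glycolysis, oxidative phosphorylation and ribosomal protein lists turned negative.

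The groups were also compared by 4 values per mouse, each with a two-sided permutation test of 100000 resamples and adjusted over the 4. Total counts differed by 0.03 log2 (permutation p = 0.344, adjusted 0.344) and size factors by -0.16 log2 (permutation p = 0.313, adjusted 0.344). The first principal component, which held 22.8% of the variance, had a mean of 3.98 ± 15.2 in D06 and -3.98 ± 15.9 in D11 mice (SD, n = 12, permutation p = 0.230, adjusted 0.344). D06 mouse 5, which had the highest share of erythroid reads, was the highest at 45.2, followed by D11 mouse 10 at 26.5, which was also alone at -40.4 on the second component (10.9% of the variance).

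The spread within each group was compared through the distances between mice. The distance of a mouse to the mean of the other mice of its group, over all 10508 genes, was 35.4 ± 7.39 in D06 and 31.1 ± 9.01 in D11 mice (SD, n = 12), with medians of 34.2 and 27.8 and a permutation p of 0.233 (adjusted 0.344). The test did not pass, and its value depended on D11 mouse 10 and D06 mouse 5, whose distances of 56.1 and 55.6 were the highest of the 24. Without D11 mouse 10 the difference was 6.88 (permutation p = 0.0104, unadjusted), without D06 mouse 5 it was 2.36 (permutation p = 0.469) and without both it was 4.95 (permutation p = 0.022, unadjusted). These settings were chosen after the data were seen. Over the first 2 components alone the sign was the opposite, with a difference of -2.81 (permutation p = 0.599). Gene by gene the SD between mice had a median of 0.290 in D06 and 0.246 in D11 mice and was larger in D06 mice for 6934 genes (66.0%). Without those 2 mice it was larger in D06 mice for 70.5%.

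**Figure D4:**
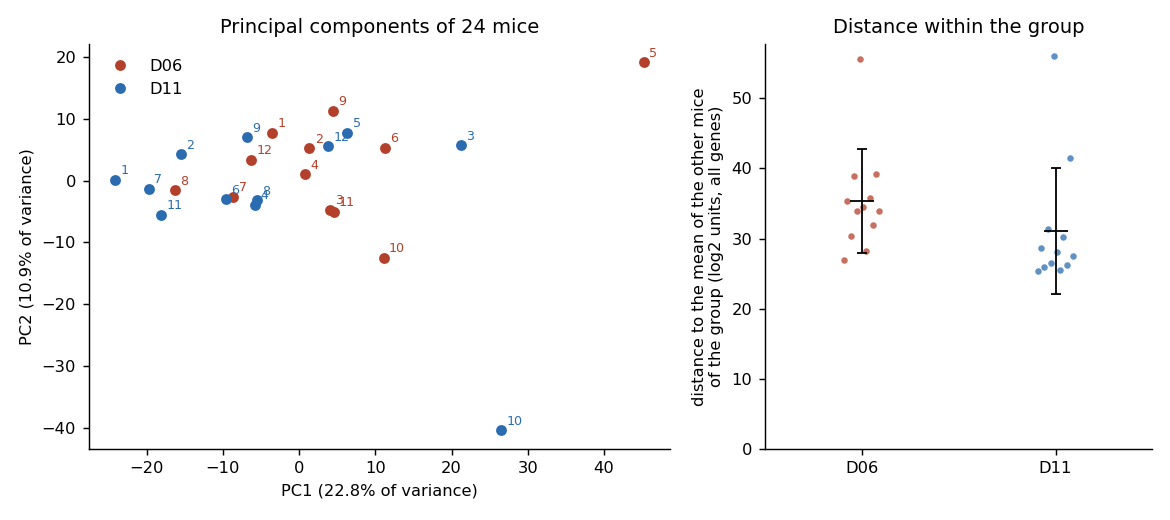
Left, the first 2 principal components of the 24 mice (D06 red, D11 blue, mouse numbers beside the points); right, the distance of each mouse to the mean of the other mice of its group (log2 units over all genes, with mean and SD). The groups were intermixed, D06 mouse 5 and D11 mouse 10 stood apart, and the median distance was 34.2 in D06 and 27.8 in D11 mice.

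Set against the other groups by the same test, the D06 and D11 groups gave different counts of called genes. Against control mice, D06 mice had 828 called genes (7.88%), 764 of them higher, and D11 mice had 8 (0.0761%), all higher. Against HOCl alone D06 mice had 14 (0.133%) and D11 mice 6 (0.0571%). Against E07 mice D06 mice had 1026 (9.76%) and D11 mice 480 (4.57%). These comparisons share the control, HOCl-alone or E07 mice, and a gene called for D06 and not for D11 is not thereby shown to differ between them, since the direct comparison of D06 with D11 called 0 genes.

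Most measured genes of the red cell lists were called against control mice in D06. Of the 20 erythroid markers 17 were called higher in D06 mice against controls, with a list median of 1.18 log2, while in D11 mice 0 were called at a median of 0.72. The shares called over all genes were 7.88% in D06 and 0.0761% in D11 mice, and in the direct comparison 0 of these 20 markers were called. For Tmod1, of the membrane skeleton list, the difference from controls was 1.41 log2 in D06 (limma FDR 0.00246) and 0.72 in D11 mice (limma FDR 0.188). The direct difference between D06 and D11 was the 0.69 given above, which did not pass.

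Other lists were compared in the same way. Eosinophil markers had 8 of 10 called higher against controls in D06 mice (median 0.71) and 2 of 10 in D11 mice (median 0.46), and type I interferon genes 7 of 31 and 0 of 31. Over all genes 7.88% were called against controls in D06 and 0.0761% in D11 mice. B cell markers had 0 of 16 called in either group against controls (medians -0.23 and -0.03) and 0 of 16 against HOCl alone. Against E07 mice 13 of 16 B cell markers were called lower in D06 and 3 of 16 in D11 mice, with medians of -0.53 and -0.31. Over all genes 9.76% and 4.57% were called against E07. Against HOCl alone, the red cell medians were -0.12 in D06 and -0.55 in D11 mice for the erythroid markers, with 0 of 20 called in either.

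Alb exceeded 100 counts in 6 of the 12 HOCl-alone mice and in none of the 11 controls, and its part in the comparisons with these groups was not tested. Few genes were called against HOCl alone. App, the amyloid precursor protein, was lower by a difference of -0.72 log2 in D06 and -0.75 in D11 mice, and Mat2a, which makes the methyl donor S-adenosylmethionine, was higher by 0.45 and 0.46. The direct differences between D06 and D11 were 0.03 for App and -0.01 for Mat2a. App, Mat2a and Ccr3 were named after their values were seen.

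**Figure D5:**
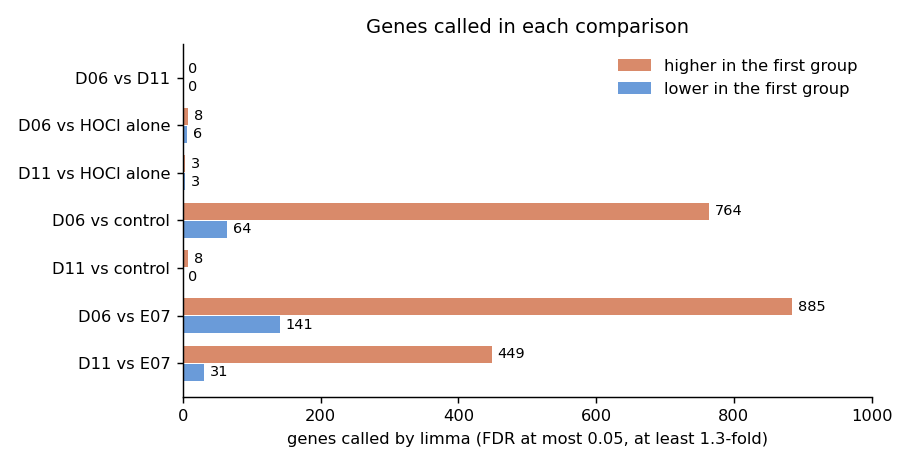
Number of genes called by limma (horizontal axis, FDR at most 0.05 and at least 1.3-fold) in 7 comparisons, higher and lower in the first named group. D06 against D11 had 0 genes, while D06 had 828 and D11 had 8 against the same control mice.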

How the data were processed

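Total RNA of whole blood was selected for poly A, depleted of globin and sequenced with a stranded kit on a NovaSeq. The authors trimmed the reads with Cutadapt, aligned them to mm39 with STAR and deposited raw counts per gene from FeatureCount for 55416 genes and 71 mice, and the tool versions and annotation are not given in the sources used here. A second table the authors deposited holds log2 values (variance stabilizing transformation, DESeq2 1.30.0) of 10508 genes. Per the methods, the authors had removed genes with low expression and genes that code for no protein, although at least 1 gene named as a pseudogene (Rpl36a-ps1) is in the table. It covers 70 mice and leaves out 1 of the 12 HOCl-alone mice. Depth is the sum of counts per mouse.

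Groups were taken from the labels. The 12 D06 and 12 D11 mice were compared with limma 3.58.1 on the deposited log2 values, at the study's thresholds. The 10503 genes matched to the count table (10501 by symbol, 2 by annotation name) were tested on counts with edgeR 4.0.16 (TMM, quasi-likelihood), and with DESeq2 1.42.0 as an alternative, in R 4.3.3. FDR is the Benjamini-Hochberg value. Scaling by total counts used log2(CPM + 1). Scripts were tested on simulated data. Replicates are labelled as separate mice.

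The named genes were, as none passed, the 5 with the smallest p in each direction, the galectins and up to 4 members of smallest p per list. The 40 lists were written from textbook knowledge and needed 3 measured genes, and the groups, lists and tests were chosen with earlier results of these data known. Coordinates are from GENCODE vM39 (GRCm39). Permutation tests over mice were two-sided, with 100000 resamples. Alternatives covered scaling, filters, tool, pool of mice and single mice left out. No 2 libraries had identical counts. Some genes that this rule names are not reported here.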

Additional observations from a re-analysis of the deposited data

How the results depend on the processing

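Of 65 other ways to count the called genes (other scalings, filters, tools and pools of mice), 63 gave 0. Without the 4 mice with over 100 Alb counts, limma called 1 gene and edgeR 1 gene, Gm1673 in each, at -0.51 log2 on the normalised values and -4.54 on counts. Those mice were chosen after seeing the data. Leaving out each mouse in turn gave 0 called genes in both tools, with 521 to 874 genes at an unadjusted p under 0.05 in limma and 475 to 782 in edgeR. Fitting all 6 groups together called 0 genes (858 at an unadjusted p under 0.05, smallest FDR 0.0756). With the replicate number as a block 0 genes were called in limma (862 at an unadjusted p under 0.05) and 0 in edgeR (765). Neither the labels nor the methods say that the numbers pair the mice. Same-numbered pairs had a mean r of 0.117, with 5 of 12 over 0.1, and other pairs had a mean of -0.01. Of the 12 D06 mice, 3 correlated best with their own number. Whether same-numbered mice share a factor was not tested. edgeR on all genes with at least 1 count called 0 genes (4086 at an unadjusted p under 0.05, smallest FDR 0.0881).

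The difference of Lgals3 was -0.03 log2 under total-count scaling with either pseudocount (-0.0284 with 1 and -0.0286 with 0.5). The distance within the group was larger in D06 mice by 4.95 without D06 mouse 5 and D11 mouse 10, by 6.88 without D11 mouse 10 and by 7.63 without the 4 mice with Alb counts, each with a permutation p under 0.05 before adjustment (0.022, 0.0104 and 0.012), and it was -2.81 over the first 2 components. The cause of these changes was not tested. At 12 mice a group, the 95% interval reached beyond 1.3-fold for 29.3% of genes.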

Other observations

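The largest difference of the table belonged to Bpifa6, a member of the BPI fold family of secreted lipid-binding proteins, at 1.32 log2 (SE 0.70, 95% interval -0.11 to 2.75, limma FDR 0.793), and it was named here after its values were seen. Its counts were at 0 in 12 of the 24 mice. In D06 mice it had 859, 3291, 828, 356, 4235 and 944 counts in mice 1, 2, 6, 8, 10 and 12 and 0 in the other 6. In D11 mice it had 539, 145, 129, 110 and 96 counts in mice 1, 3, 4, 8 and 9, 1 in mouse 11 and 0 in the other 6. Of the HOCl-alone mice 4 of 12 reached 100 counts and the highest had 370, of the E07 mice none of 12 did, and of the control mice 1 of 11 did.

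BC048679, a gene without an entry among the lists, was seen in nearly the same mice. Its counts in those 6 D06 mice were 133, 410, 233, 36, 762 and 206, and it had 0 in the other 6. In D11 mice it had 123, 20, 8 and 22 counts in mice 1, 3, 4 and 9 and 0 in the other 8.

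The kidney transcripts Umod, the urinary protein uromodulin, and Kap, an androgen-regulated kidney protein, appeared together in 6 mice, 2 of which (D06 mouse 1 and D11 mouse 1) also had Bpifa6 and BC048679. D06 mice 1, 4, 5 and 11 had 77, 457, 180 and 248 counts of Kap and 19, 78, 49 and 201 of Umod, and D11 mice 1 and 12 had 649 and 39 of Kap and 263 and 114 of Umod. In the remaining 18 mice Kap had 0 counts and Umod at most 1. None of these mice was among the 4 with over 100 counts of Alb.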
